A study of Mus musculus with 4 samples.

Results

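Mature dendritic cells are the subject here: antigen-presenting cells that carry the lymph node homing receptor gene Ccr7 and the actin-bundling gene Fscn1. They were picked from droplet single-cell RNA profiles of the renal capsule, the fibrous sheath that wraps the kidney. A barcode (a droplet taken as a cell) was first kept if it had 500 or more transcripts counted by unique molecular identifier (UMI), 300 or more genes and no more than 20% of UMIs from mitochondrial genes. It then counted as a mature dendritic cell with at least 1 UMI of Ccr7, at least 2 of Fscn1 and at least 5 of the MHC class II genes H2-Aa and H2-Ab1 together. It also needed fewer than 6 UMIs of the macrophage genes C1qa, C1qb and C1qc together and 0 of the B cell gene Cd79a and the T cell gene Cd3e. Of 37361 kept barcodes, 76 met the rule: 24 and 39 in the 2 libraries of aged mice, and 8 and 5 in the 2 libraries of young mice. The design text sets aged against young capsules. All mice were untreated, and no allele or agent separates the groups in the labels. The capsules were peeled off the kidney and dissociated with Liberase and DNase before capture by 3' droplet chemistry. How old the mice were, of which strain, and how many went into each library is not stated in the labels. Replicate libraries may therefore be technical, in which case the p-values cover only the spread among the 4 libraries and not that among mice.

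A conventional dendritic cell that has taken up antigen and been activated stops sampling its surroundings, switches on Ccr7, remodels its actin skeleton and travels along lymphatic vessels to the draining lymph node. There it shows peptides on MHC molecules to T cells, with costimulatory ligands and cytokines that start a response and inhibitory ligands and enzymes that restrain one. Such cells arise from both conventional lineages, cDC1, which depend on Irf8 and Batf3 and present antigen to CD8 T cells, and cDC2, which depend largely on Irf4 and present to CD4 T cells, and they lose much of the lineage's own marker genes on the way.

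The kept barcodes numbered 6763 and 11973 in the aged libraries and 8988 and 9637 in the young libraries. Their median depth was 6208 and 4321 UMIs in the aged libraries and 7133 and 7068 UMIs in the young libraries. The mature dendritic cells summed to 219620 and 299475 UMIs in the aged libraries and 64196 and 60167 UMIs in the young libraries. Their median depth was 7658.5 UMIs, against 7331.5 in cDC2 and 10939 in cDC1. For comparison, 732 cDC2 were gated on at least 2 UMIs of Cd209a with none of Xcr1 or Clec9a, and 597 cDC1 on at least 2 UMIs of Xcr1 and Clec9a together. Both gates carried the same class II minimum and the same exclusions, and a barcode that met the mature rule was left out of them. In all, 167 barcode sequences occurred in more than 1 library, and 0 of them belonged to a mature dendritic cell.

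Among the 76 members, Ccr7 ran over 1 to 48 UMIs (median 11), Fscn1 over 2 to 33 (median 6) and the summed class II pair over 5 to 450 (median 69.5). These values chose the cells and are given as description. At the lower bound of Fscn1, the 11 barcodes with exactly 2 UMIs included 7 with the marker Apol7c, and the 9 barcodes left out with exactly 1 UMI included 7 as well. The 65 barcodes with 3 or more included 48. At the lower bound of Ccr7, 2 of the 4 barcodes with exactly 1 UMI had Apol7c, against 2 of the 38 that met every other criterion with no Ccr7 UMI.

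Apol7c and Zmynd15 were given as markers together with the label, although the rule does not use them. Apol7c (apolipoprotein L 7c, at chr15:77524852-77533316 of GRCm38, minus strand) was detected in 55 of 76 members, or 72.4% (exact 95% interval 60.9 to 82.0%). It was detected in 0.137% of cDC2, 1.51% of cDC1, 0.238% of macrophages and 0.0319% of fibroblasts. Macrophages and fibroblasts, with median depths of 7520 and 6951 UMIs, show how often the gene was detected outside dendritic cells. The part of free RNA in those detections was not tested. Zmynd15 (chr11:70459433-70466202, plus strand), which encodes a zinc finger protein, was detected in 64.5% of members, against 2.32% of cDC2, 4.02% of cDC1, 4.43% of macrophages and 1.23% of fibroblasts. At least 1 of the pair was seen in 70 of 76 members. The pair came with the label, and members were chosen with earlier results of these data known. These values are therefore description and not a test of the label. Intervals cover counting error only.

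Markers of other cell types were counted over whole lists, summed in the members of each library. The sums are not scaled, and members held 219620 and 299475 UMIs in aged against 64196 and 60167 in young libraries. Macrophage markers summed to 59 and 205 UMIs in aged and 20 and 15 UMIs in young members, B cell and plasma cell markers to 64 and 97 against 2 and 5, and tubule markers to 35 and 81 against 105 and 33. Markers of plasmacytoid dendritic cells summed to 48 and 87 UMIs in aged and 12 and 24 UMIs in young members, those of innate lymphoid and natural killer cells to 23 and 47 against 14 and 2, endothelial and mural markers to 0 and 70 against 6 and 5, T cell markers to 9 and 4 against 4 and 2, and neutrophil, mast cell and red cell markers to 0 and 3 against 0 and 0. Among the genes that define these types, Trac of T cells, Siglech and Ccr9 of plasmacytoid dendritic cells, Adgre1 of macrophages, Lrp2 of proximal tubule and Ncr1 of natural killer cells were at 0. Others were present: Igkc and Jchain of plasma cells at 115 and 10 UMIs, and Kap and Slc34a1 of tubule at 73 and 5. Fcna and Lyve1 of macrophages had 9 and 3 UMIs, Ms4a1 of B cells 3 and S100a8 of neutrophils 1. At least 1 UMI of 10 markers of fibroblasts, T cells, plasma cells, endothelium or tubule was present in 64 of 76 members, and the part of such RNA in the results was not tested beyond the alternatives given. The fibroblast list reached the highest sums, at 13 and 552 UMIs in aged members and 17 and 880 UMIs in young members, and 4 barcodes held nearly all of it, with 248 to 442 UMIs each. These 4 lay in aged library 2 (2 of 39) and young library 2 (2 of 5), had 11487 to 16894 UMIs and were all marked by the doublet caller Scrublet. In young library 2 the pair held 16069 and 16894 of the 60167 UMIs of its members. Every summed level of mature cells in young library 2 therefore rests largely on that pair. The other 72 members had at most 10 fibroblast UMIs. Results are given with these 4 barcodes. Values without them stand beside the shares, the counts of genes and the named genes whose call they changed.

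Mature dendritic cells were a larger share of the barcodes in the aged than in the young libraries. They made up 0.355% and 0.326% of kept barcodes in the aged libraries, with exact 95% intervals of 0.228 to 0.528% and 0.232 to 0.445%. In the young libraries they made up 0.0890% and 0.0519%, with intervals of 0.0384 to 0.175% and 0.0168 to 0.121%. The groups did not overlap, and neither did their counting intervals. The means were 0.340 ± 0.0206% in aged and 0.0704 ± 0.0263% in young libraries (SD, n = 2 each), a 4.83-fold ratio. In edgeR's quasi-likelihood test over 17 gates the log2 difference was 2.25 (adjusted p = 5.27e-05), and with TMM scaling over the gates it was 1.32 (adjusted p = 0.0153). The exact two-sided permutation test of 2 against 2 libraries gave p = 0.333, the smallest it allows. Without the 4 fibroblast-rich barcodes the edgeR difference was 2.44 (adjusted p = 0.000163).

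The aged libraries held more immune cells altogether, so other denominators were used. Among barcodes with a UMI of the leukocyte gene Ptprc, mature dendritic cells with Ptprc made up 0.519% and 0.338% in aged and 0.164% and 0.163% in young libraries. These shares rest on 22 and 22 aged and 5 and 5 young barcodes, and their edgeR difference was 1.33 on the log2 scale over 12 immune gates (adjusted p = 0.0221). Without the 4 fibroblast-rich barcodes it was 1.58 (adjusted p = 0.0135). The call was lost without aged replicate 1 (adjusted p = 0.0597), without either young replicate (0.127 and 0.149), with the Fscn1 bound loosened or tightened (0.0518 and 0.106) and with TMM scaling over the gates (0.0806). A block on replicate number lost that call too. Among the 3 dendritic cell gates alone, mature dendritic cells were 6.98% and 6.16% in aged libraries, against 3.56% and 2.46% in young libraries. That is a 2.18-fold ratio of the means, with no overlap of the libraries and an exact two-sided permutation p of 0.333, the smallest that test allows. On the log2 scale the ratio was 1.13, or 1.35 without the 4 fibroblast-rich barcodes, and no other test was run on it. With every barcode thinned to 2000 UMIs, which leaves out shallower ones, 10 and 18 aged and 2 and 1 young barcodes still met the rule, or 0.161% and 0.179% against 0.0247% and 0.0120%. The gates of the parent lineages also made up more of the kept barcodes in aged libraries, with log2 differences of 1.18 for cDC1 and 1.06 for cDC2.

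**Figure D1:**
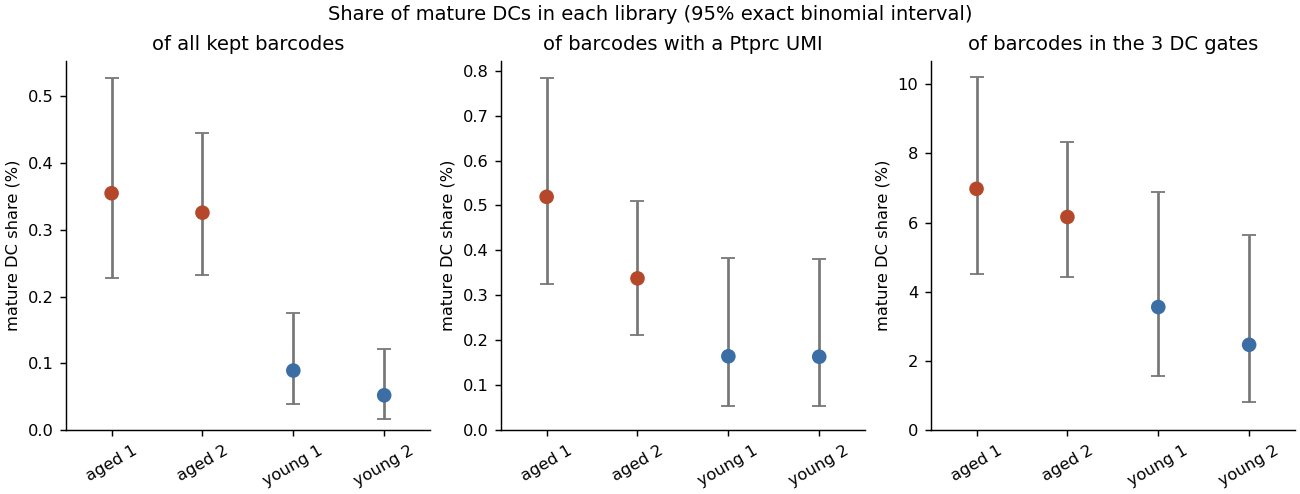
Share of mature dendritic cells (percent, vertical axes) in each of the 4 libraries, of all kept barcodes, of barcodes with a Ptprc UMI and of barcodes in the 3 dendritic cell gates; points are libraries and bars exact 95% binomial intervals. Both aged libraries lie above both young libraries on each denominator, and the intervals of the 2 ages are apart only in the left panel, where the aged shares are 0.355% and 0.326% and the young ones 0.0890% and 0.0519%.

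To place the cells beside their nearest relatives, UMIs were summed per library and population and tested by edgeR with the library as a term. Levels are UMIs of a gene per 1000000 UMIs of that population in that library (CPM), and log2 differences are mature dendritic cells over the other population, ± standard error. Because Ccr7 and Fscn1 chose the cells, genes whose transcripts accompany them were chosen with them, and the tests say only whether a level differed in the same way over the 4 libraries. Genes used by any gate were left out. Against cDC2, 1496 of 5791 genes passed an adjusted p of 0.05 (25.8%), 712 of them higher (12.3%) and 784 lower (13.5%). Against cDC1, 1505 of 5934 passed (25.4%), 768 higher (12.9%) and 737 lower (12.4%). Without the 4 fibroblast-rich barcodes 1855 and 1746 genes passed. The median log2 difference of all genes tested was -0.07 in each comparison, and the counts of each gene list stand against those shares. The lists were chosen with earlier results of these data known, so their counts are descriptions and not tests.

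**Figure D2:**
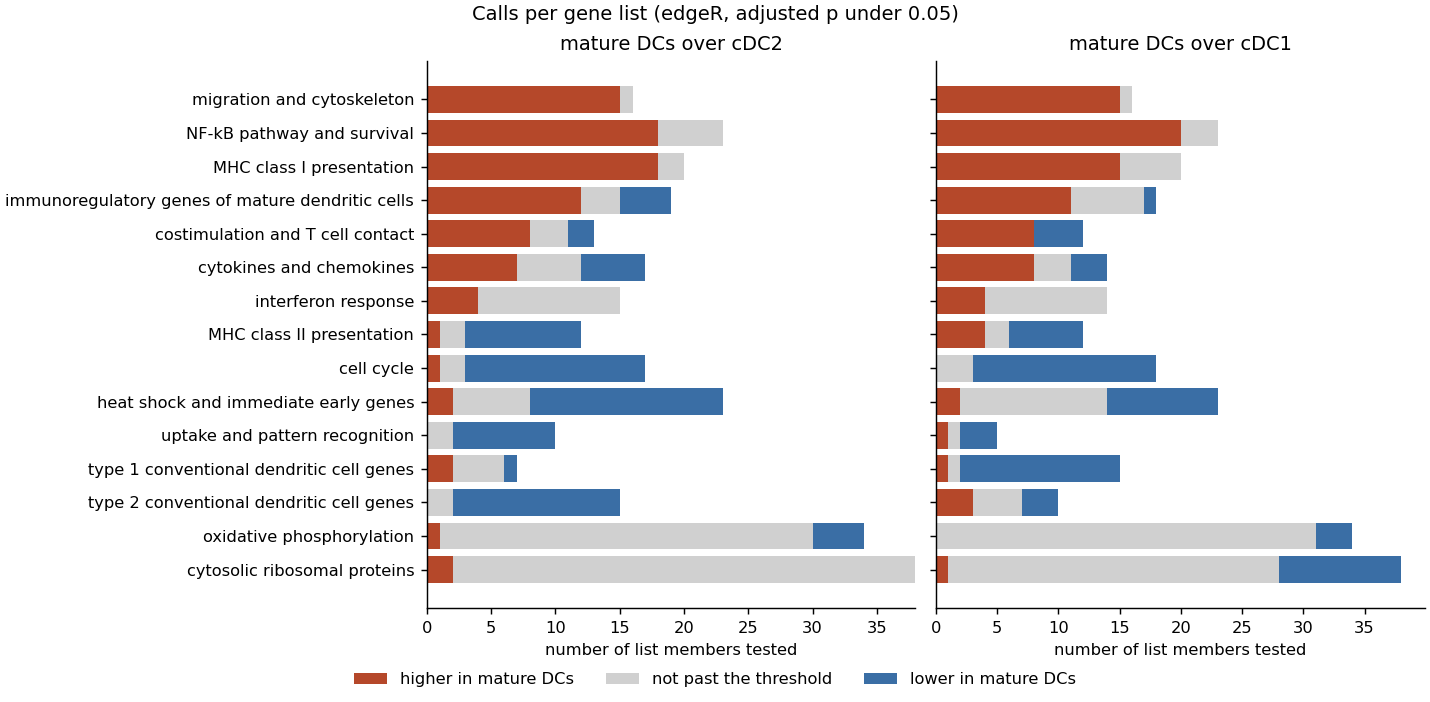
Number of tested members of each gene list (horizontal axes) that were higher (red), lower (blue) or not past the threshold (grey) in mature dendritic cells over cDC2 and over cDC1. The lists on migration, NF-kB signalling and MHC class I are nearly all red, with 15 of 16, 18 of 23 and 18 of 20 members higher than in cDC2, while cell cycle is nearly all blue, with 14 of 17 lower.

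Genes of the list on migration and the cytoskeleton were mostly higher. The list also holds genes such as Slco5a1 and Eno3, so its count does not measure migration. Of 16 tested, 15 were higher and 0 lower than in cDC2 (median log2 difference 2.43), and the same counts held against cDC1 (median 4.04). The remaining gene was Pfn1, the actin-monomer binder profilin 1, at 0.41 ± 0.18 over cDC2 (edgeR adjusted p = 0.111) and 0.50 over cDC1 (adjusted p = 0.056). Its call depended on the setting: without the 4 fibroblast-rich barcodes it passed in both (adjusted p = 0.0277 and 0.0131), and over the alternatives adjusted p ran from 0.00101 to 0.845 over cDC2 and from 7.94e-05 to 0.498 over cDC1. Slco5a1, a solute carrier family member (chr1:12866549-12992650, minus strand), had 105 and 86.8 CPM in aged and 77.9 and 116 CPM in young mature dendritic cells. It had 0 UMIs in all cDC2 and all cDC1, so it was at least 187.5-fold and at least 219.8-fold higher, with a floor of 3 UMIs over each group. Samsn1, an adaptor protein, had 969.9 and 1129 CPM in aged and 841 and 831 CPM in young mature cells. Its level was 53.2 and 61.0 CPM in aged and 61.4 and 44.5 CPM in young cDC2, a log2 difference of 4.26 ± 0.21 (edgeR adjusted p = 1.75e-09). Anxa3, a membrane-binding annexin, and Marcksl1, which binds actin at the membrane, differed by 4.31 ± 0.24 and 3.02 ± 0.25 (adjusted p = 5.56e-09 and 4.49e-07). Actb, beta-actin itself, was higher by 0.84 ± 0.15 over cDC2 (adjusted p = 0.000511). The chemokine receptor gene Cxcr4 was higher than in cDC1 by 2.22 ± 0.42 (adjusted p = 0.000858). Over cDC2 it differed by 1.66 ± 0.40 (adjusted p = 0.00595), a call lost without either aged replicate (0.184 and 0.0586) and with the stricter gate (0.0930).

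Transcripts of several chemokine and cytokine genes whose products act on T cells were higher than in cDC2 or cDC1. Protein was not measured. Ccl5 (chr11:83525778-83530518, minus strand), a chemokine that attracts T cells, was detected in 75 of 76 members, against 14.6% of cDC2, 18.8% of cDC1, 8.92% of macrophages and 4.26% of fibroblasts. Its level was 14439 and 8528 CPM in aged and 11153 and 7163 CPM in young mature cells. In cDC2 it was 59.0 and 184 CPM in aged and 5.21 and 57.8 CPM in young libraries. Every mature value lay far above every cDC2 value, at a log2 difference of 7.58 ± 0.56 (edgeR adjusted p = 1.20e-07), and over cDC1 it was 7.22 ± 0.53 (adjusted p = 7.89e-08). Ccl22, a ligand of Ccr4 on regulatory T cells and helper T cells, was detected in 52 of 76 members. It had 665 and 1362 CPM in aged and 2181 and 66.5 CPM in young mature cells, against 5.20 and 25.2 CPM in aged and 15.6 and 34.5 CPM in young cDC2. The difference was 5.78 ± 0.67 (adjusted p = 1.04e-05), although young library 2, with 5 cells, lay close to the cDC2 values. Of those 5 cells, 2 were the fibroblast-rich barcodes, with 16069 and 16894 of 60167 UMIs.

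Ccl17, the other Ccr4 ligand, did not pass against cDC2 with all barcodes, with 296 and 180.3 CPM in aged and 997 and 116 CPM in young mature cells, against 28.9 and 184 CPM in aged and 111 and 608 CPM in young cDC2 (1.43 ± 0.67, edgeR adjusted p = 0.142). It passed without the 4 fibroblast-rich barcodes (1.58, adjusted p = 3.22e-10), with doublets removed (0.003), with no filter on low counts (0.0007), with the tighter Fscn1 bound (0.0077) and without young replicate 2 (0.000103), while the other alternatives gave adjusted p of 0.0642 to 0.651. It was higher than in cDC1 (4.18 ± 0.51, adjusted p = 1.40e-05). Of the 24 members with Ccl17, 21 also had Ccl22. Il12b (chr11:44400063-44414033, plus strand) encodes the p40 chain shared by interleukins 12 and 23, and it was detected in 28 of 76 members. It had 246 and 1145 CPM in aged and 639 and 66.5 CPM in young mature cells, in all 442 UMIs against 0 UMIs in 732 cDC2, which is at least 1358.8-fold higher. Against cDC1, with 80 UMIs, the summed ratio was 59.7 (exact 95% counting interval 47.0 to 76.8). Il15 and its presenting receptor chain Il15ra were higher than in cDC2 by 3.07 ± 0.37 and 4.47 ± 0.42 (adjusted p = 1.48e-05 and 1.51e-06), and the membrane-bound chemokine gene Cxcl16 by 4.07 ± 0.22 (adjusted p = 4.98e-09).

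Other chemokines ran the other way. Ccl4, an inflammatory chemokine, had 0 and 43.4 CPM in aged and 15.6 and 0 CPM in young mature cells, against 193 and 216 CPM in aged and 147 and 239 CPM in young cDC2 (-3.16 ± 0.48, edgeR adjusted p = 0.000161). The monocyte attractant Ccl2 and the inflammatory chemokine Ccl3 differed from cDC2 by -3.54 ± 0.50 and -2.91 ± 0.57 (adjusted p = 7.75e-05 and 0.00128), and the inflammatory cytokine Il1b by -1.81 ± 0.25 (adjusted p = 7.28e-05). In the whole list of cytokines and chemokines, 7 of 17 tested were higher and 5 lower than in cDC2 (median 0.38), and 8 of 14 were higher and 3 lower than in cDC1 (median 1.97).

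Costimulatory and T cell contact genes were mostly higher, with 8 of 13 higher and 2 lower than in cDC2 (median 1.52) and 8 of 12 higher and 4 lower than in cDC1 (median 2.40). Cd40, the receptor for the helper T cell ligand, had 109 and 154 CPM in aged and 249 and 66.5 CPM in young mature cells. In cDC2 it had 29.5 and 17.9 CPM in aged and 19.8 and 20.01 CPM in young libraries. No mature library overlapped a cDC2 library, and the difference was 2.85 ± 0.34 (edgeR adjusted p = 1.73e-05). Cd83, which stabilises surface class II and Cd86, was higher than in cDC2 by 2.75 ± 0.28 and than in cDC1 by 1.82 ± 0.24 (adjusted p = 3.26e-06 and 2.66e-05). Cd86, a ligand of Cd28, took opposite sides. It had 50.1 and 46.7 CPM in aged and 125 and 33.2 CPM in young mature cells, above the 20.2 and 26.9 CPM of aged and 21.9 and 16.7 CPM of young cDC2 (1.52 ± 0.38, adjusted p = 0.00727). In cDC1 its level was 142 and 132 CPM in aged and 136 and 114 CPM in young libraries, so mature cells were lower there (-1.08 ± 0.31, adjusted p = 0.0168), a call lost without either aged replicate (adjusted p = 0.110 and 0.160).

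Genes of a list named as immunoregulatory were mostly higher beside them. It was named for mature dendritic cells and chosen with earlier results known, so its count does not measure restraint of T cells. Of the list of immunoregulatory genes of mature dendritic cells, 12 of 19 tested were higher and 4 lower than in cDC2 (median 1.81), and 11 of 18 were higher and 1 lower than in cDC1 (median 2.75). Cd274, the inhibitory ligand PD-L1, had 91.1 and 63.4 CPM in aged and 125 and 166 CPM in young mature cells, against 6.36 and 4.69 CPM in aged and 1.04 and 2.22 CPM in young cDC2 (4.65 ± 0.46, edgeR adjusted p = 2.27e-06). Il4i1, a secreted enzyme that breaks down aromatic amino acids, had 797 and 1015 CPM in aged and 685 and 632 CPM in young mature cells. Its log2 difference was 6.07 ± 0.27 over cDC2 and 7.55 ± 0.31 over cDC1 (adjusted p = 5.85e-10 and 2.33e-10). Socs2, a brake on cytokine receptor signals, differed from cDC2 by 6.50 ± 0.54 (adjusted p = 4.11e-07) and Cd200, a ligand of an inhibitory myeloid receptor, by 4.43 ± 0.33 (adjusted p = 1.33e-07). The receptor gene Tnfrsf4, known as OX40, counted in this list and in the one on T cell contact. It was higher by 6.64 ± 0.37 over cDC2 and 8.02 ± 0.39 over cDC1 (adjusted p = 5.56e-09 and 8.51e-10). Aldh1a2, which makes retinoic acid, was higher by 2.64 ± 0.48 and 3.88 ± 0.44 (adjusted p = 0.000761 and 7.11e-06). The 4 genes lower than in cDC2 were Socs3, a brake on interleukin 6 family signals (-2.49 ± 0.46, adjusted p = 0.000783), the cytokine Tgfb1 (-2.04 ± 0.33, adjusted p = 0.000257), Vsir and Lgals3.

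**Figure D3:**
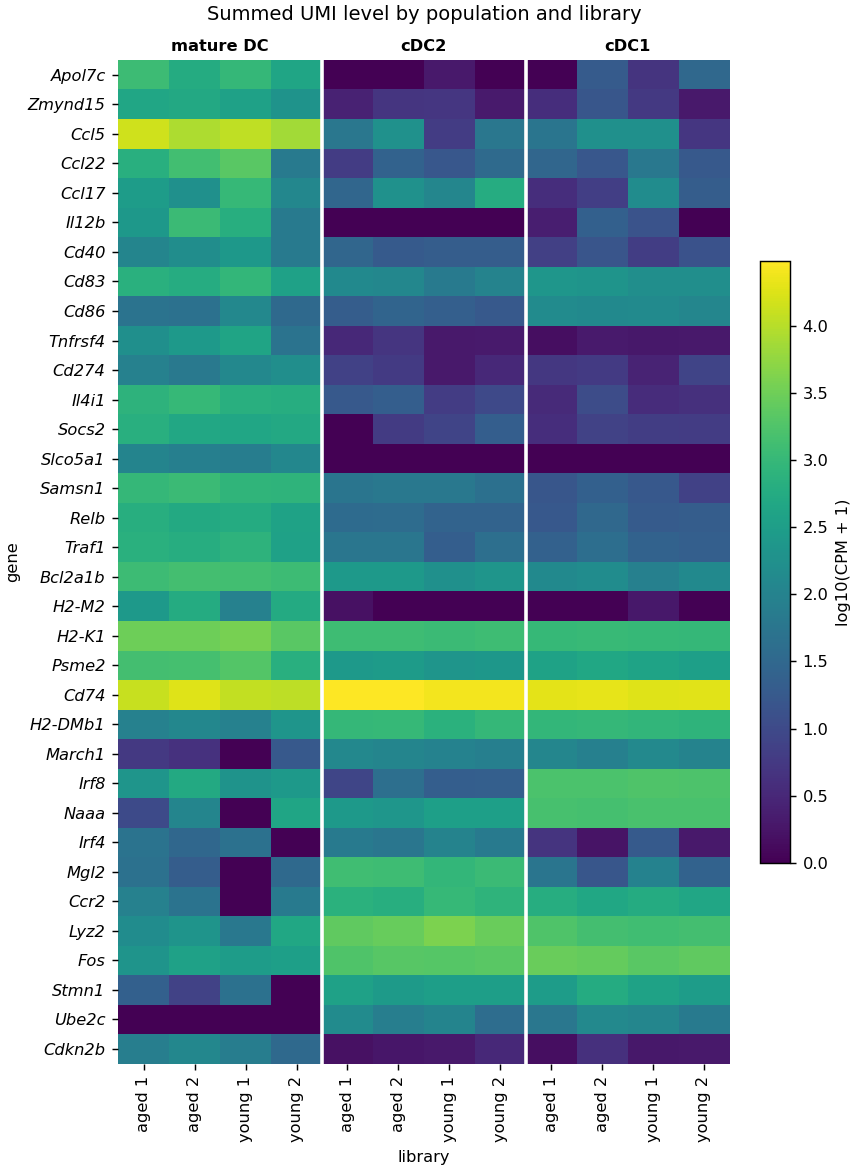
Level of 34 genes (rows) as log10(CPM + 1) of UMIs summed per library, for mature dendritic cells, cDC2 and cDC1 (column blocks), each with aged 1, aged 2, young 1 and young 2 from left to right. Ccl5, Il4i1, Samsn1 and Relb are each brighter in the mature libraries than in the other blocks, Slco5a1 is at 0 outside the mature block, and Ube2c is at 0 inside it.

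Genes of the list on the NF-kB pathway and survival, which also holds Stat4, Stat5a, Irf1 and Batf3, were mostly higher. Against cDC2, 18 of 23 tested were higher and 0 lower (median 2.04), and against cDC1, 20 of 23 were higher and 0 lower (median 2.38). Among those called were Rel, Nfkbia, Nfkbib and Tnfaip3, and against cDC1 also Rela and Nfkbie. The genes of the noncanonical branch were called as well. Relb, the transcription factor of that branch, had 642 and 518 CPM in aged and 576 and 382 CPM in young mature cells, against 35.3 and 37.1 CPM in aged and 26.0 and 25.6 CPM in young cDC2. Each mature library was above each cDC2 library, and the difference was 4.24 ± 0.23 (edgeR adjusted p = 4.73e-09). Its partner Nfkb2 and the kinase Map3k14 differed by 2.60 ± 0.26 and 2.80 ± 0.26 (adjusted p = 2.51e-06 and 1.32e-06). Nfkb1, of the canonical branch, did not pass, at -0.54 ± 0.27 over cDC2 and 0.31 ± 0.29 over cDC1 (adjusted p = 0.169 and 0.501), although with the tighter Fscn1 bound it was lower than in cDC2 (-0.88, adjusted p = 0.0448). Traf1, an adaptor of TNF receptors, differed by 3.96 ± 0.30 and the apoptosis inhibitor Birc2 by 3.79 ± 0.35 (adjusted p = 1.76e-07 and 1.04e-06). Bcl2a1b, a survival gene, differed by 2.65 ± 0.19 (adjusted p = 8.46e-08). Its copies Bcl2a1a and Bcl2a1d are near-identical, so how the reads were split between the 3 is uncertain.

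Since most genes of the NF-kB list were higher, promoters were searched for NF-kB-type letters. The search covered both strands, from 250 bases before to 50 after the start site (RefSeq, GRCm38.p6). It took the genes named as highest over cDC2 or cDC1. Of 14 such genes, 12 had a promoter in the table. The strict motif, GGGA, any base and then TTTCC, was in 0 of the 12 and in 0.466% of 27025 promoters. The looser motif, GGGA and CC with any 4 bases between them, was in 5 of the 12, in 22.9% of all promoters and in 30.4% of those of tested genes, so it is common anywhere. Windows of 3 of these 5 show the letters, with the looser motif in capitals as read on the gene's strand. In H2-M2 and Il4i1 it is the reverse complement that matches, and in Nudt17 a second match overlaps the first by all but 1 base.
H2-M2, chr17:37483671-37483720 (minus strand), 146 bases before the start: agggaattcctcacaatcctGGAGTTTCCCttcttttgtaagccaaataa
Nudt17, chr3:96708643-96708692 (minus strand), 112 bases before the start: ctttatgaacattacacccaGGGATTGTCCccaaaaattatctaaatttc
Il4i1, chr7:44836069-44836118 (plus strand), 199 bases before the start: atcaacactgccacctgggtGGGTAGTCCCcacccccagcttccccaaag
A match of letters is a description of the window and not a bound site.

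MHC class I presentation was higher as a group. Of 20 genes tested, 18 were higher and 0 lower than in cDC2 (median 1.51), and 15 were higher and 0 lower than in cDC1 (median 0.94). H2-M2 (chr17:37480851-37483552, minus strand), a nonclassical class I gene whose promoter window is given above, had 255 and 564 CPM in aged and 93.5 and 548 CPM in young mature cells. It summed to 264 UMIs against 1 UMI in cDC2, a ratio of 2435 (exact 95% counting interval 433 to 96528), and against 1 UMI in cDC1. H2-K1, a classical class I heavy chain, differed from cDC2 by 1.45 ± 0.16 and B2m, the light chain, by 1.53 ± 0.16 (edgeR adjusted p = 8.72e-06 and 3.07e-06). Psme2, an activator of the immunoproteasome, differed by 2.55 ± 0.24 and Nlrc5, the transactivator of class I genes, by 2.64 ± 0.46 (adjusted p = 1.32e-06 and 0.000478). Several class I genes, among them H2-Q6 and H2-Q7, are near-identical, and how reads were assigned between them is uncertain.

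MHC class II presentation went mostly the other way, although all 3 gates asked for the same class II minimum. Of 12 genes tested, 9 were lower and 1 higher than in cDC2 (median -1.06), and 6 were lower and 4 higher than in cDC1 (median -0.58). Cd74, the invariant chain, had 13036 and 18736 CPM in aged and 11901 and 10704 CPM in young mature cells, against 30436 and 29521 CPM in aged and 25695 and 25849 CPM in young cDC2. The groups did not overlap, and the difference was -0.91 ± 0.12 (edgeR adjusted p = 5.20e-05). Over cDC1 it was -0.45 ± 0.14 (adjusted p = 0.0244), a call lost without aged replicate 1 (0.110) or either young replicate (0.0936 and 0.0615). That call was also lost with DESeq2 (adjusted p = 0.0539) and with the looser Fscn1 bound (0.142). The peptide-loading genes H2-DMa and H2-DMb1 differed from cDC2 by -2.07 ± 0.21 and -2.78 ± 0.23 (adjusted p = 3.33e-06 and 4.52e-07), and Ciita, the master regulator of class II transcription, by -1.66 ± 0.35 (adjusted p = 0.00209). March1, the ligase that sends surface class II and Cd86 to degradation, had 3 UMIs in all mature cells against 632 in cDC2, which is 22.8-fold lower (exact 95% counting interval 7.78 to 111-fold). The gene higher than in cDC2 was Ifi30, a lysosomal thiol reductase that unfolds antigen (1.19 ± 0.22, adjusted p = 0.00078). H2-Eb2, a further class II beta chain gene, had 123 and 200.4 CPM in aged and 46.7 and 66.5 CPM in young mature cells, against 0 to 2.83 CPM in cDC1 (7.03 ± 0.58, adjusted p = 2.41e-07).

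The class II minimum left out 27 barcodes that met every other criterion, 8 and 14 in aged and 2 and 3 in young libraries. Of these, 22 had Apol7c and 22 had Relb. They had 2799 CPM of Cd74, against 15358 CPM in the members, and 328 CPM of H2-Eb1, against 6840 CPM. Ccl5 was at 20174 CPM in them and 10680 CPM in the members, Apol7c at 1393 and 805 CPM, and Relb at 574 and 553 CPM. Ccl22 was at 290.0 CPM in them and 1085 CPM in the members. Their level of Zmynd15 was 328 CPM, against 448 CPM in the members. These sums are carried by the 22 aged barcodes. In the 5 young ones Apol7c was at 47.4 and 129 CPM, against 950.2 and 432 CPM in young members, and Relb at 237 and 257 CPM, against 576 and 382 CPM. Ccl5 was at 47.4 and 33142 CPM in them, against 11153 and 7163 CPM in young members. These are descriptions, since class II genes drew the line. With the 27 barcodes added, the share of kept barcodes differed between aged and young libraries by 2.22 on the log2 scale (edgeR adjusted p = 4.20e-05).

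**Figure D4:**
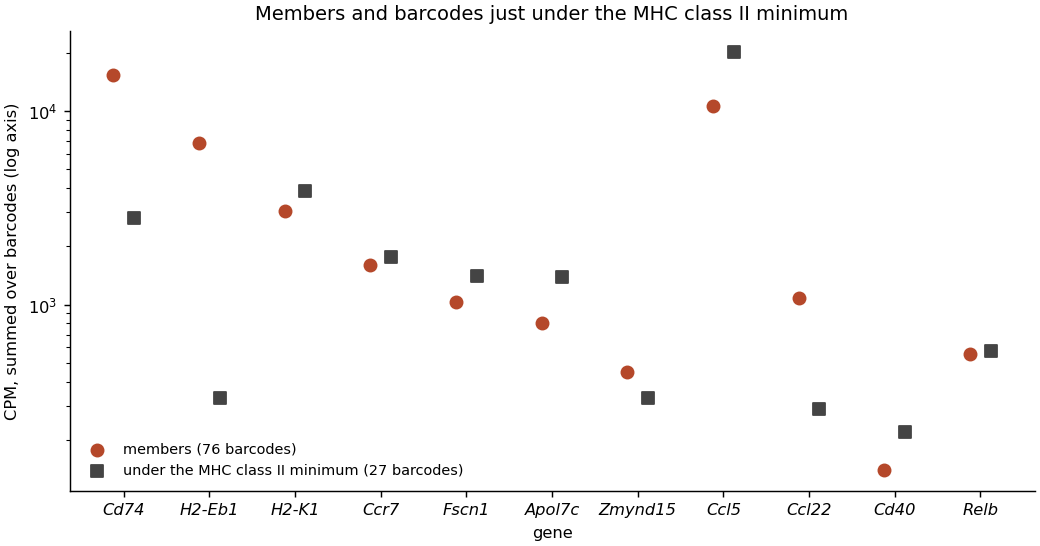
Level of 11 genes (CPM of UMIs summed over barcodes, log axis) in the 76 members (circles) and in the 27 barcodes that met every criterion but the class II minimum (squares). Cd74 and H2-Eb1 are lower in the 27 barcodes, at 2799 and 328 CPM, while the sums of Apol7c, Ccl5 and Relb over all libraries are as high as in the members or higher; in both young libraries Apol7c and Relb are lower in the barcodes under the minimum.

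Marker genes of both parent lineages were lower than in the gated parent cells. Because Xcr1 and Clec9a chose the cDC1 and Cd209a the cDC2, genes whose transcripts accompany these were chosen with them. Against cDC1, 13 of 15 cDC1 genes were lower and 1 higher (median -3.56), and against cDC2, 13 of 15 cDC2 genes were lower and 0 higher (median -3.54). Irf8, the factor that cDC1 need, had 214 and 528 CPM in aged and 203 and 266 CPM in young mature cells. That lay between the 1632 to 1770.5 CPM of cDC1 libraries (-2.41 ± 0.25, edgeR adjusted p = 2.30e-06) and the 7.52 to 42.2 CPM of cDC2 libraries (3.99 ± 0.28, adjusted p = 6.68e-08). Batf3, its partner, was higher than in cDC2 (1.20 ± 0.24, adjusted p = 0.00171). Over cDC1 it differed by 0.72 ± 0.22 (adjusted p = 0.025), a call lost without either aged replicate (0.221 and 0.0596) or young replicate 1 (0.114). That call was also lost with no filter on low counts (adjusted p = 0.285). Irf4 was higher than in cDC1 (3.35 ± 0.59, adjusted p = 0.000515) and did not pass against cDC2 (-0.77 ± 0.38, adjusted p = 0.163). Mgl2, a lectin of cDC2, had 45.5 and 20.04 CPM in aged and 0 and 33.2 CPM in young mature cells, against 928 to 1291 CPM in cDC2 libraries (-5.27 ± 0.32, adjusted p = 1.25e-08). The chemokine receptor Ccr2 differed from cDC2 by -3.54 ± 0.35 (adjusted p = 2.37e-06), and Gcsam, a signalling gene of cDC1 in these libraries, had 1 UMI in mature cells against 858 in cDC1.

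Transcripts of the parent lineages were seen in some members. At least 1 UMI of Xcr1, Clec9a, Cadm1 or Wdfy4 was seen in 23 members and at least 1 of Cd209a, Clec10a, Mgl2 or Sirpa in 25, with 7 in both sets and 35 in neither. Of these genes, Xcr1 and Clec9a were each detected in 0.0957% of fibroblasts and in 0 of 732 cDC2, whose gate bars them, whereas Sirpa was detected in 37.6% and Cadm1 in 9.54% of fibroblasts. Members with a UMI of Xcr1 or Clec9a, the genes of the cDC1 gate, numbered 14 (3 and 6 in aged, 3 and 2 in young libraries). Summed over these 14, Naaa, a lysosomal amidase of cDC1, was at 356.5 CPM, against 12.3 CPM in the other 62 members, and Irf8 was at 700.0 against 258 CPM. Irf4 and the cDC2 receptor gene Sirpa had 0 UMIs in the 14 and 47.0 and 40.9 CPM in the 62. Ccl17 was at 32.4 CPM in the 14 and 378 CPM in the 62, and Ccl22 at 668 and 1216 CPM. Il12b was at 1069 and 566 CPM, whereas Batf3 (324 and 345 CPM) and Cd40 (156 and 135 CPM) were close. Members of both sets shared Apol7c, at 532 and 891 CPM. These sums pool cells of 4 libraries and carry no test.

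**Figure D5:**
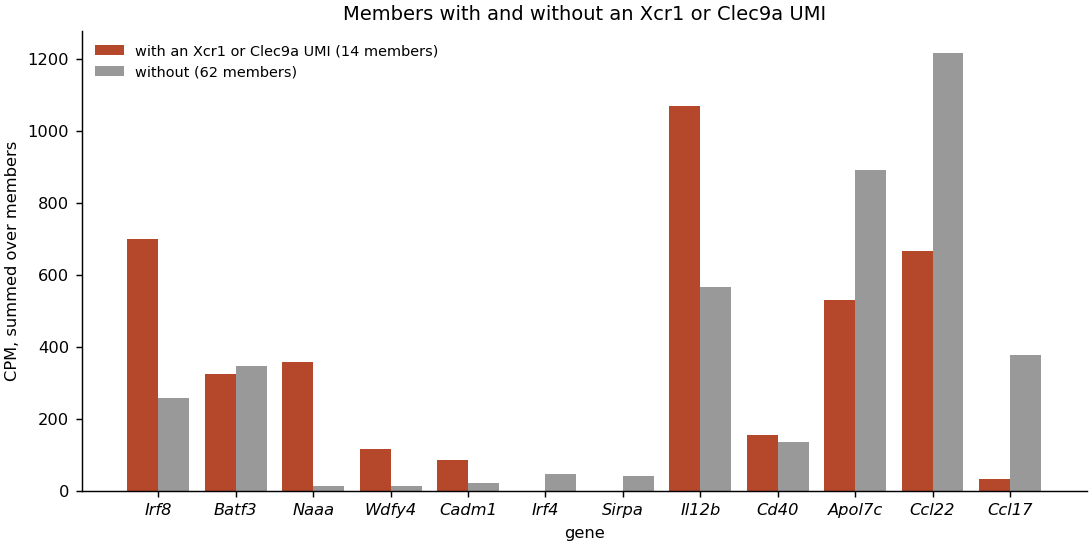
Level of 12 genes (CPM of UMIs summed over members, linear axis from 0) in the 14 mature dendritic cells with an Xcr1 or Clec9a UMI (red) and the 62 without (grey). Naaa, Wdfy4 and Irf8 are taller in red, and Ccl17, Ccl22, Irf4 and Sirpa in grey, with Naaa at 356.5 and 12.3 CPM and Ccl17 at 32.4 and 378 CPM.

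Genes of antigen uptake and pathogen sensing were low. Of 10 tested against cDC2, 8 were lower and 0 higher (median -2.87), and of 5 tested against cDC1, 3 were lower and 1 higher (median -2.77). Lyz2, lysozyme, had 150.3 and 207 CPM in aged and 62.3 and 465 CPM in young mature cells, against 2413 and 2759 CPM in aged and 3899 and 2881 CPM in young cDC2 (-3.68 ± 0.30, edgeR adjusted p = 3.44e-07). The inhibitory Fc receptor Fcgr2b differed from cDC2 by -4.57 ± 0.43 (adjusted p = 1.26e-06). Cd14, a coreceptor for bacterial lipopolysaccharide, had 2 UMIs in mature cells against 431 in cDC2.

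Immediate early and heat shock genes, which tissue dissociation can induce, were lower, with 15 of 23 lower and 2 higher than in cDC2 (median -0.96) and 9 lower and 2 higher than in cDC1 (median -0.60). Fos had 209 and 364 CPM in aged and 296 and 332 CPM in young mature cells, against 1755 to 2143 CPM in cDC2 libraries (-2.58 ± 0.18, edgeR adjusted p = 6.68e-08), and Egr1 differed by -2.29 ± 0.31 (adjusted p = 4.49e-05). Klf6, in contrast, was higher by 1.51 ± 0.19 (adjusted p = 2.12e-05).

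Cell cycle genes were low as well. Against cDC2, 14 of 17 were lower and 1 higher (median -3.19, or -3.04 with the gene Ccna2, at 0 UMIs, set to its bound), and against cDC1, 15 of 18 were lower and 0 higher (median -3.44, or -3.22 at the bound). Ube2c, a ubiquitin-conjugating enzyme of mitotic exit, had 0 of 643458 UMIs in mature cells. It had 582 UMIs in cDC2 and 666 in cDC1, so it was at least 21.04-fold and at least 20.5-fold lower. Stmn1, a microtubule regulator of dividing cells, had 22.8 and 6.68 CPM in aged and 46.7 and 0 CPM in young mature cells, against 280.2 to 364 CPM in cDC2 libraries (-4.13 ± 0.40, edgeR adjusted p = 1.80e-06). A UMI of Mki67 or Top2a was seen in 6 of 76 members. Of the cell cycle inhibitors, Cdkn2b had 82.0 and 120.2 CPM in aged and 77.9 and 33.2 CPM in young mature cells, against 0.578 and 0.853 CPM in aged and 1.04 and 2.22 CPM in young cDC2 (6.44 ± 0.52, adjusted p = 3.47e-07). Cdkn1a was higher by 3.10 ± 0.26 over cDC1 (adjusted p = 3.60e-07). The list of senescence genes and cell cycle inhibitors that holds this pair had 2 of 9 higher and 3 lower than in cDC2, and 2 of 10 higher and 4 lower than in cDC1.

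Interferon response genes differed in a few members only, with 4 of 15 higher and 0 lower than in cDC2 (median 0.29) and 4 of 14 higher and 0 lower than in cDC1 (median 0.23). Mx1, an antiviral GTPase, was higher by 3.27 ± 0.29 and Gbp2, a guanylate-binding protein, by 2.37 ± 0.31 over cDC2 (edgeR adjusted p = 7.73e-07 and 4.14e-05). Oxidative phosphorylation had 1 of 34 higher and 4 lower than in cDC2, and 0 higher and 3 lower than in cDC1. Cytosolic ribosomal proteins had 2 of 38 higher and 0 lower than in cDC2, and 1 higher and 10 lower than in cDC1. Of the fibroblast list, 9 genes were tested against cDC2 and 10 against cDC1, and 0 passed.

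Outside the lists, several less discussed genes were among those with the largest differences. Cacnb3, a calcium channel beta subunit, had 455 and 464 CPM in aged and 654 and 332 CPM in young mature cells, against 0 to 1.11 CPM in cDC2 and 1.05 to 3.66 CPM in cDC1 libraries. The summed ratio was 925 over cDC2 (exact 95% counting interval 314 to 4512) and 232 over cDC1 (136 to 430.3). Nudt17, a nudix hydrolase, had 351 and 367 CPM in aged and 545 and 183 CPM in young mature cells, a summed ratio of 1074 over cDC2 (294 to 8924). Bcl2l14, a Bcl2 family gene, and Serpinb6b, a serine protease inhibitor, were set apart from cDC2 more than from cDC1, at 8.71 ± 0.39 and 7.71 ± 0.36 over cDC2, and 3.79 ± 0.33 and 2.79 ± 0.21 over cDC1 (edgeR adjusted p at most 4.06e-07). Mreg, melanoregulin, had 84 UMIs in mature cells against 3 in cDC2 and 3 in cDC1. Ankrd33b, an ankyrin repeat gene, differed by 6.72 ± 0.46 and 7.55 ± 0.52 (adjusted p = 5.92e-08 and 3.84e-08).

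On the low side, Ptpn22, a phosphatase that restrains lymphocyte receptor signals, and Dpep2, a dipeptidase that acts on leukotrienes, had 0 UMIs in mature cells. Ptpn22 was at least 9.11-fold lower than in cDC2 and at least 9.87-fold lower than in cDC1, and Dpep2 was at least 15.0-fold and at least 8.26-fold lower. Hopx, a homeodomain cofactor, was at least 14.5-fold lower than in cDC2, and Cyp8b1, a sterol hydroxylase, at least 13.4-fold lower than in cDC1. Ifitm6, an interferon-induced membrane protein, had 1 UMI in mature cells against 1322 in cDC2, or 143-fold lower (exact 95% counting interval 25.7 to 5666-fold). The complement factor properdin, Cfp, had 18.2 and 3.34 CPM in aged and 0 and 0 CPM in young mature cells, against 249.9 to 467 CPM in cDC2 libraries (-5.12 ± 0.44, edgeR adjusted p = 6.40e-07).

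Within the mature dendritic cells, no gene passed the test of aged over young libraries. By edgeR, 0 of 1830 genes tested were called (0.0%), with 82 at an unadjusted p under 0.05 and the lowest adjusted p at 0.386. Without the 4 fibroblast-rich barcodes 0 of 1910 passed, with 129 at an unadjusted p under 0.05. DESeq2 called 5, and edgeR called 0 with its other scaling (RLE), 24 with a block on replicate number, 19 without the class II minimum, 61 with no filter on low counts and 12 to 81 without single libraries, so the count depends on the setting. The standard error of a log2 difference had a median of 0.48. On simulated counts the age fit called 51% of 4-fold changes, so a gene not called may still differ. For 4 genes high in the mature cells, the difference between the ages was under 2 standard errors, which does not show that they were equal. Ccl5 differed by 0.33 ± 0.30, Il4i1 by 0.47 ± 0.32, Relb by 0.28 ± 0.35 and Apol7c by 0.34 ± 0.46 (edgeR adjusted p 0.922 to 0.959). For Ccl22 the 2 young libraries, at 2181 and 66.5 CPM, lay on either side of the aged 665 and 1362 CPM, and its difference was -0.11 ± 1.01 (adjusted p = 1.00). Without young replicate 1 that difference was 3.99 (adjusted p = 0.000855), and without young replicate 2 it was -1.03 (adjusted p = 0.0239), so the direction rests on which young library is kept. Il12b was likewise spread, at 246 and 1145 CPM in aged and 639 and 66.5 CPM in young cells (1.02 ± 0.92, adjusted p = 0.942), and without young replicate 1 it differed by 3.47 (adjusted p = 0.0433).

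Of the 9 class II genes tested, 0 passed with age, and their median difference was 0.58, against 0.01 for all genes tested. H2-Eb1, a class II beta chain, had 6334 and 8224 CPM in aged and 3988 and 4837 CPM in young mature cells, with no overlap (0.72 ± 0.25, edgeR adjusted p = 0.896). H2-DMb2, of the peptide loader, had 164 and 150.3 CPM in aged and 15.6 and 49.9 CPM in young cells (2.25 ± 0.63, adjusted p = 0.896). Both passed with no filter on low counts (adjusted p = 0.0271 and 0.0311) and without young replicate 2 (0.0482 and 0.0375). This pair was chosen after its values were seen. The 14 migration genes tested had a median of 0.08, the 19 NF-kB genes -0.05, the 19 class I genes 0.22 and the 8 cytokine and chemokine genes 0.62, with 0 passing in each.

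The 5 genes that DESeq2 called were mt-Nd2, mt-Nd4, Igkc, Dnase1l3 and Retnla. All 5 also passed in edgeR with a block on replicate number (adjusted p at most 0.000558). Over all alternatives, DESeq2 and fits with a library left out among them, mt-Nd2, mt-Nd4 and Dnase1l3 each passed in 5 of 14. Igkc passed in 6 of 14 and Retnla in 6 of 13. With RLE scaling, doublets removed, the fibroblast-rich barcodes left out or the looser or stricter gate, 0 genes passed. The mitochondrially encoded complex I genes mt-Nd2 and mt-Nd4 had lower levels in aged cells. For mt-Nd2 these were 683 and 621 CPM in aged and 1682 and 2177 CPM in young mature cells (-1.57 ± 0.29, edgeR adjusted p = 0.386), beside 754 and 928 CPM in aged and 2165 and 2423 CPM in young cDC2. The mitochondrial share of UMIs, which can mark RNA or cell quality, moved with it: its median was 1.38% and 1.39% in aged and 2.03% and 2.57% in young mature cells, and 1.74% and 1.74% in aged and 2.60% and 2.57% in young fibroblasts. Its part in the result was not tested. Igkc, an immunoglobulin light chain of plasma cells, had 178 and 254 CPM in aged mature cells and 0 UMIs in young ones, at least 9.18-fold higher (adjusted p = 0.386). In cDC2 its level was 109 and 259.7 CPM in aged and 0 and 2.22 CPM in young libraries. The plasma cell gate held 84 and 210 barcodes in aged and 4 and 1 in young libraries, and the part of free plasma cell RNA in the value was not tested. Dnase1l3, a secreted nuclease, had 77.4 and 80.1 CPM in aged and 280.4 and 399 CPM in young mature cells (-2.09 ± 0.39, adjusted p = 0.386). In cDC2 it had 0.578 to 2.08 CPM, and in cDC1 81.1 and 89.4 CPM in aged and 54.9 and 81.5 CPM in young libraries. Retnla, a secreted factor of the resistin family, had 22.8 and 30.1 CPM in aged and 93.5 and 765 CPM in young mature cells (adjusted p = 0.584). Young library 2, where 2 of 5 members were fibroblast-rich, carried most of it.

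Whether a change with age in mature cells differed from that in cDC2 was tested as an interaction. On simulated counts this fit called 11% of 4-fold and 50% of 16-fold changes, so a gene not called may still differ. By edgeR, 1 of 7006 genes passed (0.0143%), with 252 at an unadjusted p under 0.05. It was Clu, which encodes the extracellular chaperone clusterin (chr14:65968483-65981547, plus strand). Clu had 109 and 210.4 CPM in aged and 93.5 and 49.9 CPM in young mature cells, against 0.578 and 0.853 CPM in aged and 21.9 and 20.01 CPM in young cDC2. The aged cDC2 libraries lay under the young ones, while the aged mature libraries lay over the young ones. The difference of the age changes was 5.83 ± 0.81 on the log2 scale (adjusted p = 0.00768), while the age change in mature cells alone was 1.17 ± 0.59 (adjusted p = 0.896). In cDC1 the level was 0.943 and 4.67 CPM in aged and 21.04 and 13.6 CPM in young libraries. Mature cells as a whole had more Clu than cDC2 (4.50 ± 0.73, adjusted p = 0.000283) and than cDC1 (4.33 ± 0.61, adjusted p = 6.07e-05). The cDC2 values rest on 1 and 2 UMIs in aged and 21 and 18 UMIs in young libraries. With the barcodes marked by Scrublet left out they were 1 and 2 UMIs in aged and 1 and 4 UMIs in young libraries, and the difference of the age changes was 2.43 (adjusted p = 0.954). The mature cells then had 24 and 32 UMIs in aged and 6 and 2 UMIs in young libraries. With all barcodes kept, but without aged replicate 2, it was 5.49 (adjusted p = 0.0752). With the library left out of the model it was 5.79 (adjusted p = 0.128) and 0 genes passed. Without the 4 fibroblast-rich barcodes it was 5.87 (adjusted p = 4.90e-07), and 5 genes passed.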

How the data were processed

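UMI counts per gene and barcode were taken as deposited: raw integers from which the authors had already removed barcodes not called as cells, made with Cell Ranger 6.0.2 on GRCm38 per the submitters' processing notes and version 6.0.1 per the file headers. The annotation is not given in the sources used here, and 52403 of 52636 genes matched GENCODE M21, which gave coordinates. Members and gene lists were chosen with earlier results of these data known.

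Gates were applied to raw counts, and UMIs were summed per library and population. edgeR 4.0.16 (quasi-likelihood test, TMM, filterByExpr, limma 3.58.1, R 4.3.3) tested genes across the whole table, with Benjamini-Hochberg adjustment over it and a threshold of 0.05. Comparisons with cDC2 and cDC1 had the library as a term. Alternatives were DESeq2 1.42.0, RLE scaling, no filter on low counts, other gates and mitochondrial limits, doublets removed (Scrublet, scanpy 1.11.5), mixed droplets removed (members with a UMI of any of 10 fibroblast, T cell, plasma cell, endothelial or tubule markers), thinning to 2000 UMIs and each library left out. Leaving out the class II minimum, the library term or the fibroblast-rich barcodes was chosen after seeing the data. The fits were tested on simulated counts with known changes, at a spread that was set and not taken from the data. Of 4-fold changes they called 51% for age, 76% over cDC2, 80% over cDC1 and 11% for the interaction. Of 16-fold changes they called 92%, 96%, 93% and 50%. Named genes were the 10 called with the largest change in each direction at 50 CPM or more in the higher group, list members, Apol7c and Zmynd15, and the genes DESeq2 called with age, added afterwards.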

Additional observations from a re-analysis of the deposited data

Results flagged for a closer look

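The change of Clu with age differed between mature dendritic cells and cDC2, by 5.83 on the log2 scale in edgeR's test of the difference itself (adjusted p = 0.00768). Clu had 109 and 210.4 CPM in aged and 93.5 and 49.9 CPM in young mature cells, against 0.578 and 0.853 CPM in aged and 21.9 and 20.01 CPM in young cDC2. With the barcodes that Scrublet marked left out, young cDC2 had 1 and 4 UMIs of Clu, against 21 and 18 UMIs with all barcodes, and the difference was then 2.43 (adjusted p = 0.954).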

How the results depend on the processing

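The share of mature dendritic cells among kept barcodes stayed higher in aged libraries and past the threshold under every alternative run, at log2 differences of 1.32 (TMM over the gates) to 3.13 (thinned) and 1.91 to 2.67 without single libraries. On barcodes with Ptprc it was weaker with the looser gate (1.05), the stricter gate (1.09) and TMM (1.07), and 1.03 to 1.65 without single libraries. Among the dendritic cell gates, with no test, the log2 ratio was 1.92 when thinned, 0.83 with the stricter gate and 0.89 to 1.42 without single libraries. Genes over cDC2 numbered 872 to 1732 and over cDC1 766 to 1761 without single libraries, with fewer samples and cells in each, and stayed within 1.5 times under the other alternatives. Genes called with age numbered 5 with DESeq2, 19 without the class II minimum, 61 with no filter on low counts and 12 to 81 without single libraries, against 0. For the interaction they numbered 3 with DESeq2, 7 with doublets removed, 5 without the fibroblast-rich barcodes, 26 without the class II minimum, 9 with no filter, 20 with the stricter gate and 4 to 77 without single libraries, against 1. Where a library was left out, the lone library of its age was assumed to vary like the other groups. Removing mixed droplets left 12 of 76 members, 6 and 3 in aged and 1 and 2 in young libraries, and 174 genes to test. Within the mature cells, the age difference of Ccl5 was -0.58 without mixed droplets and -0.085 to 0.73 without single libraries, that of Il12b -0.52 to 3.47, that of Apol7c -0.23 to 1.06 and that of Ccl22 -1.03 to 3.99. For Ccl22 it was 0.13 with no filter and 0.20 with the stricter gate. The cause of these moves was not tested. Over all named genes, 61 of 2943 recomputed values lost their call, 75 gained one in the same direction and 10 changed sign, among them Ccl22 with a call.

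Replicate numbers are shared by the ages as numbers only: deviations from the age means of same-numbered libraries correlated at 0.334 over 1834 genes. With 2 libraries per age the deviations mirror each other, so both pairs give the same value by construction. With a replicate block on those numbers, 24 genes passed with age, the age difference of Ccl22 was 0.50, the share of kept barcodes 2.28 and that among Ptprc barcodes 1.36 (adjusted p = 0.0533). With no replicate block, that is without the library term, 0 genes passed the interaction. The age test rests on 8 and 5 young mature cells.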
